A study of Mus musculus with 2 samples.

Results

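Neat1 and Malat1 are neighboring long noncoding RNA genes whose transcripts stay in the nucleus. Their nascent RNA was examined in mouse bone marrow-derived macrophages (BMDMs) with Global Run-On sequencing (GRO-seq), in which engaged RNA polymerases in isolated nuclei extend their transcripts with a bromine-labeled nucleotide. The members were the called nascent transcripts that carried the gene name Neat1 or Malat1. There were 40 of them among the 43122 transcripts of the control library (29 Neat1, 11 Malat1) and 39 among the 51365 transcripts of the IL-4 library (27 Neat1, 12 Malat1). In both libraries, wild-type BMDMs from mice aged 8 to 12 weeks had been differentiated for 6 days in L929 supernatant, a source of the growth factor M-CSF. The control library came from cells without IL-4, and the other came from cells given IL-4, the cytokine of alternative polarization, at 20 ng/ml for 1 hr. Each library was made from duplicate run-on reactions that were pooled, so there was 1 library per condition. The differences below therefore have no replicate check and no p-value, and they compare these 2 libraries rather than the conditions.

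Neat1 RNA is the scaffold of paraspeckles, nuclear bodies that hold RNA-binding proteins. It is made from a single promoter as a short polyadenylated isoform and as a long isoform that runs through the short isoform's end, and only the long one builds paraspeckles. Malat1 RNA collects in nuclear speckles, which store splicing factors. The long isoform of Neat1 and Malat1 share an unusual way of making their 3′ ends: RNase P cuts before a tRNA-like fold, and U-rich and A-rich stretches ahead of the cut fold into a triple helix that protects the end. In Malat1 the tRNA-like piece is released as the small RNA mascRNA.

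In mm10 (GRCm38), Neat1 (ENSMUSG00000092274.3) lies at chr19:5824708-5845478 on the minus strand and spans 20771 bp. Malat1 (ENSMUSG00000092341.3) lies at chr19:5795690-5802672 on the same strand and spans 6983 bp. The Malat1 start site is 22035 bases beyond the Neat1 3′ end, so polymerases on both genes move in the same direction, with Neat1 upstream. GENCODE lists both as lincRNA genes. The long isoform covers the whole gene as a single exon, and the short isoform spans 3170 bp at chr19:5842307-5845476.

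The 3′ ends of both RNAs are shown first, because the transcript calls at these sites are described below. The small RNA is in capitals in each, preceded by 60 bases in lower case. The Malat1 sequence is chr19:5795924-5796041 and the Neat1 sequence is chr19:5824652-5824767, both in GRCm38 and read 5′ to 3′ on the minus strand. The capitals mark mascRNA (58 bases, RefSeq position) and Gm27702 (56 bases, annotated by GENCODE as a small RNA directly past the Neat1 3′ end).

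Malat1 3′ end with mascRNA: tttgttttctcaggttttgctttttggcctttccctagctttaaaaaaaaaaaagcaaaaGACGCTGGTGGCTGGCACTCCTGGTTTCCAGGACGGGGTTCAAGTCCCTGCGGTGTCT

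Neat1 3′ end with Gm27702: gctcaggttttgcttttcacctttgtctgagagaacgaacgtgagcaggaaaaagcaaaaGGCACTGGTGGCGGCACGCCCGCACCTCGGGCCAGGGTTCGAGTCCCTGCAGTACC

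The 2 small RNAs had 40 identical bases over 58 alignment columns (69%). The 60 bases ahead of them shared a U-rich run of 16 bases, printed here as DNA, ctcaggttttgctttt. It started 52 bases before mascRNA and 59 bases before Gm27702. Directly before both small RNAs the same 11 bases, aaaaagcaaaa, were found.

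The Malat1 promoter entry of RefSeq (GRCm38.p6, chr19:5802623-5802922, minus strand) is shown because no transcript was called over the first 342 bases of the gene in either library. The 50 bases from the start site on are in capitals.

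Malat1 promoter: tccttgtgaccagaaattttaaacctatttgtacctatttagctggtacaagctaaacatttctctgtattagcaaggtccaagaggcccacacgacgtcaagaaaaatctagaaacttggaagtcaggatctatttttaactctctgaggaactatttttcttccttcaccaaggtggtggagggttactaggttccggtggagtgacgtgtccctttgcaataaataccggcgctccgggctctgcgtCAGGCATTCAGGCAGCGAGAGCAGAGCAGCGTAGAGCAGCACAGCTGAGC

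On both strands, this window held no match to TTC and GAA spaced by 4 bases or by 3 bases of any kind (STAT motifs), to TGANTCA (AP-1), to GAGGAAGT (PU.1) or to TATAAA. Among 32851 RefSeq promoter windows of the same length, 6.95%, 8.30%, 7.81%, 3.2% and 13.6% held these letters, in that order. Each motif was searched on its own, so matches of different motifs could overlap.

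Each transcript in the files had a score, printed to 1 decimal, whose scaling is not given in the sources used here. Over all transcripts, control had a median score of 0.3 and the IL-4 library one of 0.2. A gene's value was the highest score among its transcripts. Log2 ratios (IL-4 over control) were then centred on the median of the 8879 genes with a value in both libraries, at which the IL-4 value was 0.769 of the control value. A change was called at 2-fold after centring.

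The Neat1 gene value was 28.1 in control and 15 after IL-4, which gave a centred log2 ratio of -0.53 (-0.53 to -0.52 over the rounding of the scores). The Malat1 gene value was 80.7 in control and 63.3 after IL-4, which gave 0.028. Thus Neat1 was lower after IL-4 relative to the median gene and Malat1 was close to it by this value, and neither reached 2-fold. Over all 8879 genes, 8.06% were at least 2-fold higher and 8.62% at least 2-fold lower. A share of 24.8% of genes had a lower ratio than Neat1, and 50.8% had a lower ratio than Malat1. Malat1 ranked 28 among gene values in both libraries, and Neat1 ranked 39 in control and 51 after IL-4. In bulk samples, fewer cells making an RNA and less RNA made per cell cannot be told apart.

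Levels between genes can only be compared per length. The mean score per base of the gene on its own strand, with 0 for bases without a transcript, was 40.9 for Malat1 and 3.98 for Neat1 in control. After IL-4 it was 31.0 for Malat1 and 2.56 for Neat1. By this mean, Malat1 exceeded Neat1 by 10.3 times in control and by 12.1 times after IL-4. These ratios, and the ranks and shares by score times length below, measure level only if the score is a value per base. Its scaling is not given. Among the 6887 genes of at least 5 kb with transcripts on their strand in both libraries, Malat1 ranked first by score times length per base in both libraries. Neat1 ranked 3 in control and 5 after IL-4. Of the summed score times length of all transcripts without ribosomal precursor and mitochondrial ones, Malat1 took 3.43% in control and 2.46% after IL-4, and Neat1 took 1.00% and 0.606%.

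By score times length, the median gene was not lower but 1.09 times higher after IL-4, and the centred log2 ratio was -0.77 for Neat1 and -0.53 for Malat1. Over the 8185 genes measured this way, 16.5% were at least 2-fold higher and 16.7% at least 2-fold lower. Neat1 was below the median gene by both measures. The direction of Malat1 relative to the median gene depended on the measure.

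The Neat1 transcripts formed a high stretch at the start, a low middle and a second high stretch at the 3′ end. On the gene strand, 23 transcripts overlapped Neat1 in control and 19 did so after IL-4, with scores from 0.3 to 28.1 and from 0.3 to 15. They covered 71.9% of the gene in control (14932 bp) and 66.3% after IL-4 (13763 bp). In both libraries together, 56.4% of the gene was covered in each and 18.2% in neither. The first transcript began 5 bases inside the gene in control and 6 bases ahead of the annotated start after IL-4.

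**Figure D1:**
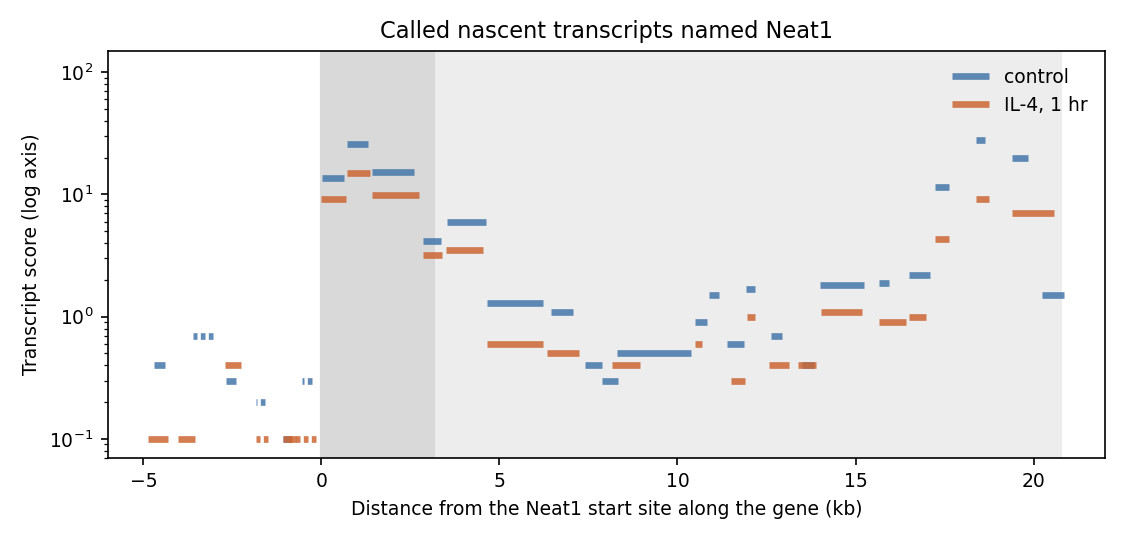
Called transcripts named Neat1 by distance from the start site (kb, 0 is the annotated start) and score (log axis), in control (blue) and after IL-4 for 1 hr (orange), with 1 library per condition. Solid bars are transcripts on the gene strand, dashed bars lie on the opposite strand, gray shading is the gene and its darker part is the stretch shared with the short isoform. Inside the gene, scores peaked at 25.8 (control) and 15 (IL-4) near the start and at 28.1 and 9.1 near the 3′ end, and the 2 IL-4 transcripts farthest upstream, scored 0.1, are not drawn.

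Over the stretch that both isoforms share, the mean score was 13.8 in control and 9.54 after IL-4, a ratio of 0.694 as printed (0.688 to 0.699 over rounding). Over the stretch that belongs to the long isoform only, it was 2.22 in control and 1.30 after IL-4, a ratio of 0.584 (0.562 to 0.607). The long-only stretch was therefore the lower one in both libraries, and its ratio lay below that of the shared stretch.

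The long-only stretch itself was uneven. Up to 17000 bases from the start, its mean score was 1.23 in control and 0.679 after IL-4. Over the last 4 windows of 1 kb, it was 5.84 in control and 3.57 after IL-4, a ratio of 0.610. Relative to the shared stretch, these last windows stood at 0.425 in control and 0.374 after IL-4. On the bases that both libraries covered, the corresponding values were 0.929 and 0.664. The score at the far end of the long isoform was thus lower after IL-4 by both ways of averaging, also relative to the start of the gene.

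The transcripts at both ends carry this pattern. At the 5′ end, the transcript at chr19:5844833-5845473 scored 13.7 in control, and its IL-4 counterpart at chr19:5844800-5845484 scored 9.2. The next one scored 25.8 in control (chr19:5844166-5844760) and 15 after IL-4 (chr19:5844119-5844765). The one after it scored 15.3 and 9.9, and the one at the end of the short isoform scored 4.2 and 3.2. All 4 were lower after IL-4 as printed, and after centring on the median of all matched transcripts their log2 ratios ran from -0.44 to -0.054.

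At the 3′ end, the transcript at chr19:5827850-5828257 scored 11.5 in control and 4.3 after IL-4. Its calls were 408 and 409 bp long with nearly the same ends, so the scores refer to the same bases, and the centred log2 ratio was -1.08. The transcript at chr19:5826844-5827104 held the highest Neat1 score in control, 28.1. Its counterpart after IL-4, at chr19:5826733-5827105, scored 9.1, at a centred log2 ratio of -1.29, with calls of 261 and 373 bp. These were the only matched pairs inside either gene to pass 2-fold.

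Further on, the library calls were cut differently. In control, chr19:5825621-5826073 scored 19.9 and chr19:5824632-5825243 scored 1.5. After IL-4, a single transcript of 1168 bp at chr19:5824906-5826073 scored 7.1 and overlapped both. Gm27702 lay wholly within the control transcript that scored 1.5, and no IL-4 transcript reached it.

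The stretch with the highest control score and the stretch with the highest IL-4 score are shown, since the gene value of Neat1 compares the distal one in control with the proximal one after IL-4. Both are GRCm38, minus strand. The distal one is the whole control transcript at chr19:5826844-5827104, with a tandem run of the unit GTTT, 20 bases long, in capitals. The proximal one is the first 300 bases of the IL-4 transcript, chr19:5844466-5844765, in which no run of at least 12 bases of a unit of 1 to 4 bases was found.

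Neat1 distal transcript: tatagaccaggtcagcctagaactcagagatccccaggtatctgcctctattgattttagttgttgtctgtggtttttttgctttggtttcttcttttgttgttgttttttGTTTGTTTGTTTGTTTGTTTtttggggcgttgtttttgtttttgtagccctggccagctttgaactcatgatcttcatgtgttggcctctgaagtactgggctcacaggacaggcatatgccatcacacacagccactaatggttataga

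Neat1 proximal transcript: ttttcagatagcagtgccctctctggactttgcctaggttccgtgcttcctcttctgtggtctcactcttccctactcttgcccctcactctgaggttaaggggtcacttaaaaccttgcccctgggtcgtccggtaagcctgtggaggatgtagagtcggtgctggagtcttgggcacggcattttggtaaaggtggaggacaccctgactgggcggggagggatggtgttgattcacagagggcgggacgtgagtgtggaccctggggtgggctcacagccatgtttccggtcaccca

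T made up 42.1% of the distal stretch and 27.0% of the proximal one, beside 30.0% over all of Neat1. GC made up 41.4% and 57.3%. In the run-on, the labeled nucleotide takes the place of U. The control call of the distal transcript is annotated with a simple repeat, and its IL-4 counterpart with a SINE element. The part of base content and repeats in the scores was not tested. Without transcripts annotated as simple repeat or low complexity, the control value of Neat1 became 25.8, the proximal transcript, and the centred log2 ratio became -0.46. This setting took out the distal Neat1 calls scored 28.1 and 19.9 in control, and no Neat1 call after IL-4.

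Transcripts matched one to one between libraries give each position its own comparison. Inside Neat1 there were 17 such pairs, and 16 were below the median of all 25272 matched transcripts (median centred log2 ratio -0.44). A count of 2 pairs (11.8%) was at least 2-fold lower and 0 were at least 2-fold higher. Over all matched transcripts, 9.38% were at least 2-fold lower and 10.0% at least 2-fold higher. Over those with a mean score of at least 1, these shares were 13.0% and 9.21%. Of these 2183 transcripts, 1257 were below 0 after centring, with a median of -0.12. The share of Neat1 pairs past 2-fold lay close to these backgrounds, while the sizes in between were nearly all on the lower side. The pairs share 1 RNA and 1 library per condition and are not replicates.

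Call lengths differed between the libraries, with a median of 227 bp over all control calls and of 312 bp over all IL-4 calls. Of the Neat1 pairs, 8 had lengths within 10% of each other. All 8 were below 0, with a median of -0.43. Over all matched transcripts with lengths within 10% and a mean score of at least 1, 317 of 539 were below 0. Their median was -0.11. The middle of the gene gave examples of Neat1 pairs of like length. At chr19:5839251-5840817 the score was 1.3 in control and 0.6 after IL-4, with the same 3′ end in both. At chr19:5833312-5833546 it was 1.7 in control and 1.0 after IL-4. The only pair above 0 after centring had a score of 0.4 in both libraries.

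**Figure D2:**
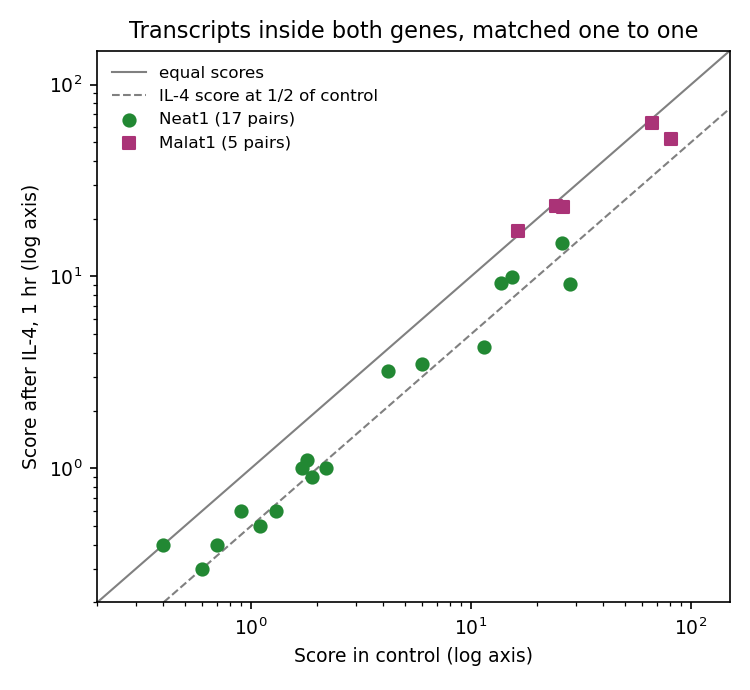
Scores of transcripts matched one to one inside Neat1 (17 pairs, circles) and Malat1 (5 pairs, squares), in control (x axis) and after IL-4 for 1 hr (y axis), both on log axes with 1 library per condition. The solid line marks equal scores and the dashed line an IL-4 score of 1/2 of control. Malat1 pairs lie near the line of equal scores except for 80.7 against 52.1, and the Neat1 pairs of 11.5 against 4.3 and 28.1 against 9.1 lie well below the dashed line.

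Malat1 was higher and more even. On the gene strand, 6 transcripts overlapped Malat1 in control, scoring from 16.4 to 80.7, and 8 did so after IL-4, scoring from 7.8 to 63.3. They covered 73.2% of the gene in control (5113 bp) and 84.8% after IL-4 (5919 bp). All but 1 of the bases covered in control were also covered after IL-4, and 807 bp were covered after IL-4 only. In both libraries the first transcript began 342 bases from the annotated start, at the same base.

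From 5′ to 3′, the first pair scored 66.7 in control (chr19:5801478-5802330) and 63.3 after IL-4 (chr19:5801432-5802330). The second scored 80.7 (chr19:5800081-5801344) and 52.1 (chr19:5800048-5801344). Both pairs began at identical bases, so of these neighbors the first was nearly equal as printed and the second was lower after IL-4. In the 3′ part, the pair at chr19:5797065-5797930 scored 24.4 and 23.2, the next 16.4 and 17.3, and the last 26.2 and 23.1. These pairs were close to equal as printed. The 5 pairs had a median centred log2 ratio of 0.26, with 4 above 0, and none passed 2-fold in either direction.

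**Figure D3:**
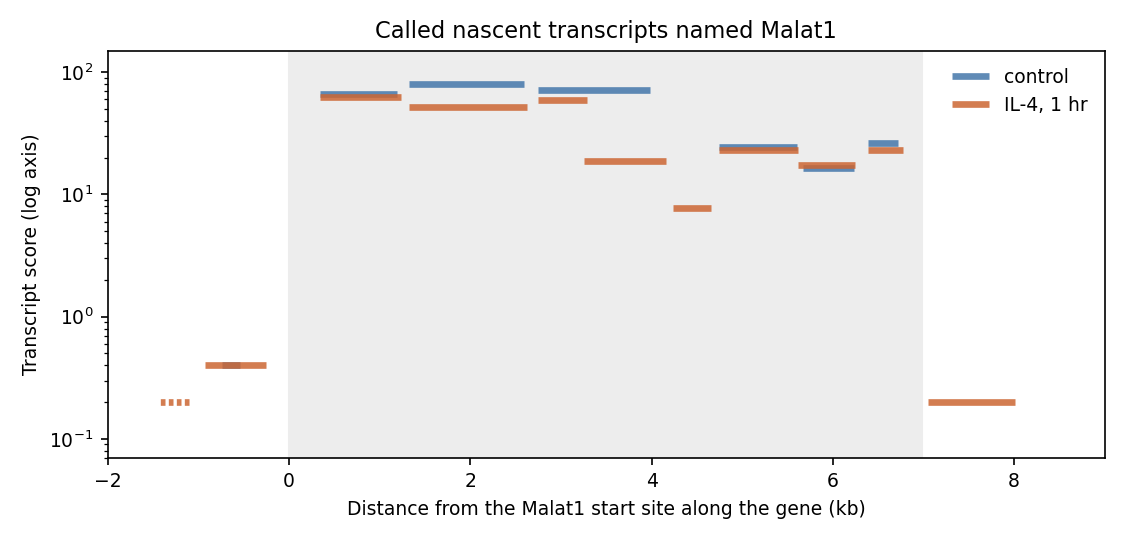
Called transcripts named Malat1 by distance from the start site (kb) and score (log axis), drawn as for Neat1, with control in blue, IL-4 for 1 hr in orange and the gene in gray. In the 5′ part, calls from 5′ to 3′ scored 66.7, 80.7 and 71.1 in control and 63.3, 52.1, 59.0 and 18.7 after IL-4. In the 3′ part, scores were between 7.8 and 26.2. Transcripts more than 2 kb upstream, scored at most 0.4, are not drawn.

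The third control transcript of Malat1 had no single counterpart. At chr19:5798687-5799921 it scored 71.1. After IL-4 the same bases were split into chr19:5799381-5799921, which scored 59.0, and chr19:5798509-5799415, which scored 18.7. A call of 417 bp that scored 7.8 followed at chr19:5798019-5798435, where control had none. Gm27694, annotated by GENCODE as a miscellaneous RNA within Malat1, lay within the transcripts scored 71.1 in control and 18.7 after IL-4.

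Malat1 was also split in the middle. The mean score of its first 3491 bp was 60.6 in control and 45.9 after IL-4. Its last 3492 bp had mean scores of 21.3 and 16.0. The ratios of IL-4 over control were 0.757 and 0.755. Accordingly, the 3′ part stood at 0.351 of the 5′ part in control and at 0.350 after IL-4. On the bases that both libraries covered, these values were 0.444 in control and 0.381 after IL-4. Whether the 3′ part of Malat1 stood lower relative to its 5′ part after IL-4 thus depended on the averaging, and the genes were not tested against each other, since there were no replicates.

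Over mascRNA, the small RNA in capitals in the Malat1 sequence above, the control transcript scored 26.2 and covered 27 of its 58 bases. The IL-4 transcript scored 23.1 and covered all 58. The control call therefore ended within mascRNA and the IL-4 call ended past it, with 5′ ends 1 base apart.

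**Figure D4:**
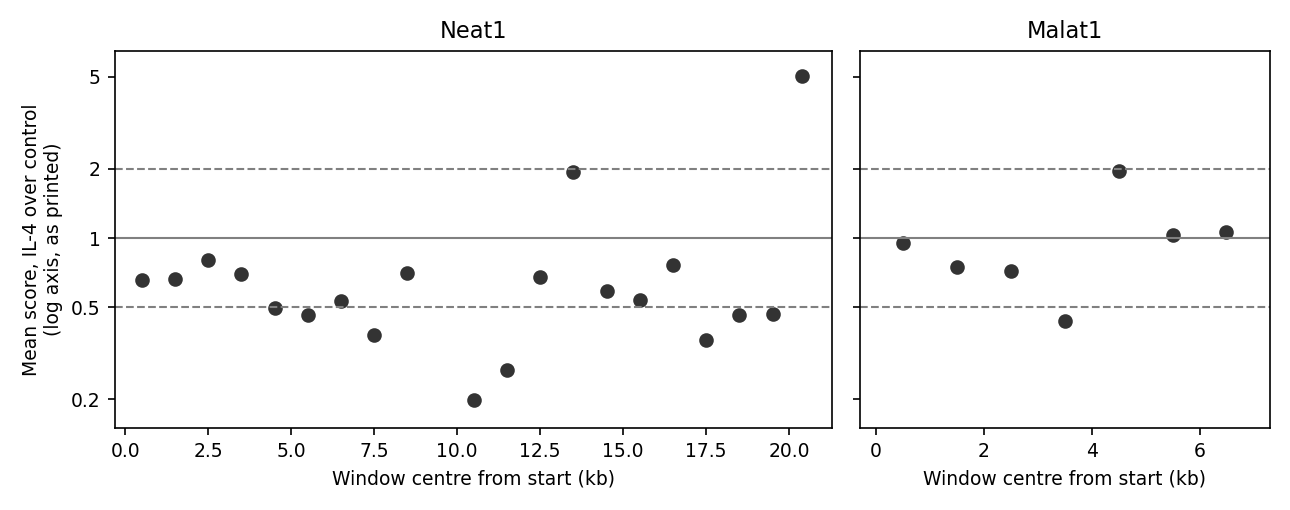
Mean score after IL-4 over that in control, as printed and without centring, in windows of 1000 bp along Neat1 (left) and Malat1 (right), on a log axis against the window's distance from the start site in kb, with 1 library per condition. Lines mark ratios of 1 (solid), 0.5 and 2 (dashed). Of the Neat1 windows, 18 lie below 1 and 2 above it, and the window without an IL-4 transcript is not drawn.

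In windows of 1000 bp, 20 of the 21 Neat1 windows had transcripts in both libraries. The mean score was lower after IL-4 in 18 of them and higher in 2, with a median ratio of 0.563 and a range from 0.199 to 5.06. The ratio was at most 0.5 in 8 windows. The single ratio above 2, in the last window (1.04 in control, 5.28 after IL-4), lies where the IL-4 transcript scored 7.1 spanned the bases of both the 19.9 and the 1.5 control transcripts. A window 9 to 10 kb from the start had a mean score of 0.5 in control and no transcript after IL-4. Of the 7 Malat1 windows, 4 were lower and 3 higher after IL-4, with a median ratio of 0.949 and a range from 0.435 to 1.96. The extremes lay in neighboring windows, 4 and 5, across the split calls.

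The high windows at the Neat1 start were rich in GC. The 2 windows with the highest control means, 16.1 and 16.9, held 56.4% and 54.1% GC, the highest of the 21 Neat1 windows, and the first of them had the lowest T content. T ranged from 22.7% to 35.2% over the Neat1 windows and from 21.9% to 33.0% over those of Malat1. Spearman's rho between a window's T content and its mean score was -0.28 in control and -0.36 after IL-4 over the 21 Neat1 windows. It was -0.18 and -0.54 over the 7 Malat1 windows. These are descriptions over windows that share transcripts and a library, and the part of base content in the scores was not tested.

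No transcript lay on the opposite strand inside Neat1 or Malat1 in either library. Gm37376, which is annotated on the plus strand within Malat1, had none. Outside the genes, the transcripts on the gene strand that carried either name scored at most 0.4. Those named Neat1 lay upstream of it, 3 in control and 6 after IL-4. Some fell within Frmd8 on the Frmd8 strand. These were chr19:5849859-5850184 in control and chr19:5849790-5850357, chr19:5857695-5857989 and chr19:5858127-5858538 after IL-4. Those named Malat1 lay mostly upstream of its start. The exception was a call of 962 bp past its 3′ end at chr19:5794658-5795619, scored 0.2 and seen after IL-4 only. In control, the calls at chr19:5820026-5820222, chr19:5822038-5822251, chr19:5822886-5823176 and chr19:5823891-5824125 lay closer to the Neat1 3′ end than to the Malat1 start. They scored from 0.2 to 0.4 and overlapped no IL-4 call. After IL-4, the call at chr19:5817702-5818058 also lay closer to the Neat1 3′ end. It scored 0.2 and overlapped no control call. Which of the genes these calls belong to was not tested.

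Upstream of the Neat1 start and on the other strand lies Frmd8os, an antisense transcript gene that begins 145 bp away and runs in the opposite direction. The 3 control transcripts named Neat1 on that strand scored 0.3, 0.2 and 0.7 with growing distance. The 2 IL-4 ones scored 0.1 each. These scores were far below those of the first Neat1 transcript (13.7 and 9.2), and at this size a step of 0.1 is a large part of the value.

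The surroundings of both genes were scored low. Of the 22 annotated genes within 100 kb, 10 had a value in both libraries, with a median centred log2 ratio of 0.20. Of these 10, 1 was at least 2-fold higher after IL-4 and 2 at least 2-fold lower. The shares over all 8879 genes were 8.06% and 8.62%. The 6 nearest of the 22 were Gm27694, Gm27533, Gm27505 and Gm28006, listed by GENCODE as miscellaneous RNAs, the small RNA Gm27702 and the plus-strand Gm37376. None of these had a value under its own name. Gm27533 and Gm27505 lie in the Neat1 transcript scored 25.8 in control and 15 after IL-4, and Gm28006 lies in the one scored 13.7 and 9.2. The genes past 2-fold, named for that, were Map3k11 (0.3 in control, 0.6 after IL-4), Slc25a45 (0.7 and 0.2) and Ehbp1l1 (1.7 and 0.6). On its own strand, Ehbp1l1 scored 2.3 and 1.8. Frmd8, the nearest protein-coding gene, stood at 0.4 in both libraries.

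The proteins that work with these RNAs are encoded elsewhere. Of 22 listed genes for paraspeckle proteins, 18 had a value in both libraries. Of these, 0 were past 2-fold in either direction, beside 8.06% higher and 8.62% lower over all 8879 genes. The median centred log2 ratio of the 18 was 0.010, beside 0 over all genes. The lowest were Cpsf6 (-0.90), a cleavage factor subunit that bears on the choice between the Neat1 isoforms, Taf15 (-0.46) and Hnrnph3 (-0.45). The highest were Rbm14 and Hnrnpr (0.96 each) and Matr3 (0.87), although Hnrnpr scored 0.2 in both libraries on its own strand. The core paraspeckle proteins had values of 1.1 in control and 1.2 after IL-4 for Sfpq, 0.4 and 0.3 for Nono, and 1.2 and 1.1 for Pspc1.

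Of 17 listed genes of nuclear speckles and Malat1 processing, 16 had a value in both libraries. Of these, 2 were at least 2-fold higher after IL-4 and 0 at least 2-fold lower, beside 8.06% and 8.62% over all 8879 genes. The median centred log2 ratio of the 16 was 0.26. The higher ones were Srsf1, a splicing factor (0.3 in control and 0.6 after IL-4), and Mettl3, an RNA methyltransferase (0.2 and 0.7). On its own strand and within the gene, however, Mettl3 scored 0.2 and 0.1. The third highest was Tra2b (0.79). The lowest were the splicing regulators Srsf5 (-0.65), Clk1 (-0.62) and Tra2a (-0.36). Elac2, the tRNA 3′ processing enzyme that trims mascRNA, had a value after IL-4 only, 0.2.

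**Figure D5:**
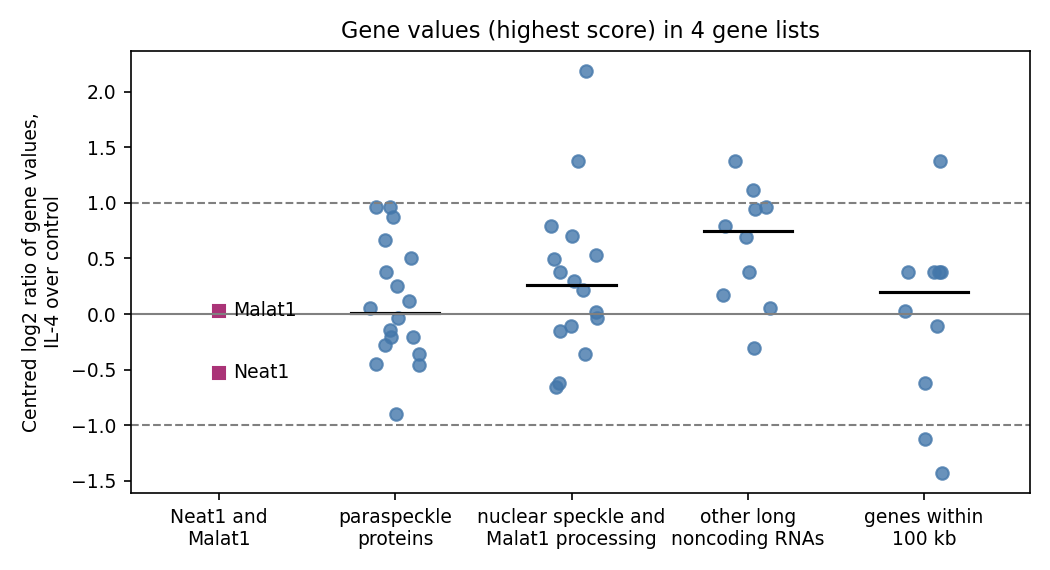
Centred log2 ratio of gene values (IL-4 over control, 1 library per condition) for Neat1 and Malat1 (squares) and for the genes with a value in both libraries in 4 lists (circles, 1 per gene, spread sideways for legibility, with a black bar at each list's median). Dashed lines mark 2-fold. Neat1 at -0.53 lies below the medians of the 4 lists, which run from 0.010 to 0.75, and Malat1 at 0.028 lies near that of the paraspeckle genes.

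Of 23 other listed long noncoding RNAs, 10 had a value in both libraries. Snhg12 (1.38) and Snhg5 (1.12), host genes of small nucleolar RNAs, were at least 2-fold higher, 0 were at least 2-fold lower, and the median was 0.75. Over all 8879 genes, 8.06% were at least 2-fold higher and 8.62% at least 2-fold lower. Snhg5 scored 0.3 in control and 0.5 after IL-4. Rounding allowed it a centred ratio from 0.74 to 1.52, so its 2-fold call is not secure. The other host genes were at 0.94 (Snhg3), 0.79 (Snhg8), 0.17 (Gas5) and -0.31 (Snhg1). Mir22hg, a microRNA host, was at 0.96, Rmrp, the RNA of RNase MRP, at 0.70, Kcnq1ot1 at 0.38 and Tug1 at 0.057. Counting all transcripts that overlap the gene on its own strand moved several of these values. Snhg12 then scored 3.2 in control and 3.9 after IL-4, which is short of 2-fold. Snhg8 scored 0.6 and 1.3, which is past 2-fold after centring, and Mir22hg scored 0.8 and 0.6. By the values under their own names, Snhg1 was the only one of the 10 below the median gene, as Neat1 was. Its value under its own name (3.7 in control, 2.3 after IL-4) did not include transcripts overlapping it on its strand that scored 28.1 and 32.2, so its direction depended on which transcripts were counted. Other listed RNAs had values in both libraries only by overlap on their own strand. These were Epb41l4aos (1.6 in control, 0.9 after IL-4), Firre (1.2 and 0.6), Rny1 (1.0 and 0.4) and Rn7sk (9.4 and 8.6). All were lower after IL-4 as printed, as was the median gene, and the median of 0.75 does not include them.

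The genes whose values in both libraries came closest to those of Neat1 were Cntnap5b, Gm14347, Chordc1, Ifngr2 and Kif16b, by distance between log2 values over the 2 libraries (0.29 to 0.58). Those closest to Malat1 were Spint1, Gm19277, Trim59, Igf2bp3 and Il1rapl1 (0.48 to 0.89). In control, the transcripts behind these values were 48 to 364 bp long, and 7 of the 10 were annotated with a LINE element, ribosomal RNA or a low-complexity run. The control value of Neat1 likewise rests on 1 call of 261 bp annotated with a simple repeat, and that of Malat1 on 1 call of 1264 bp.

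The label of the cells was checked against marker genes. All 10 macrophage markers had a transcript on their own strand in both libraries, with summed highest scores of 19.8 in control and 17.8 after IL-4. Of 5 neutrophil markers, 2 had one in each library, with summed scores of 1.1 in control and 0.5 after IL-4. S100a8, S100a9 and Mpo had one in at least 1 library, and Elane and Ly6g had none in either. Listed markers of B cells, T cells, dendritic cells, fibroblasts and erythroid cells had none.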

How the data were processed

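GRO-seq was performed on 1 control and 1 IL-4 library. The authors aligned reads to mm10 with BWA 0.7.10, removed ENCODE blacklisted regions and called transcripts per library with HOMER 4.2 (versions, and SAMtools 0.1.19, from the submitters' processing notes). The deposited value is a score per transcript, rounded to 1 decimal, and the deposited positions and distances to the start site are in bases. Whether the score was scaled to depth or length is not given in the sources used here, and depth is unknown, so no counting interval was given. Transcript numbers in the files have gaps: 27.4% of numbers up to the highest per strand and chromosome were present in control and 26.5% after IL-4, so the files may hold a filtered set of calls. Inside Neat1, 23 of 27 and 19 of 20 numbers were present, and inside Malat1 all 6 and all 8.

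Gene values were the highest score per gene name. Log2 ratios were centred on the median gene. Rounding ranges moved each score by 0.05. Transcripts were matched where they overlapped by at least 1 bp and only each other. Groups came from the treatment label. Genes were named if they were members, among the 6 nearest of those within 100 kb, the 3 highest or lowest in the paraspeckle or speckle list, valued in both libraries in the noncoding RNA list, or among the 5 nearest in value; others were named after their values were seen, as were the core paraspeckle proteins, Elac2, Frmd8os and Frmd8. Members, lists and tests were chosen with earlier results of these data known. Annotation was GENCODE M21 (GRCm38), with promoter and mascRNA positions from RefSeq. Python 3.11.15, pandas 2.3.3, numpy 2.4.6, scipy 1.17.1 and Biopython 1.88 were used, and the ratio step was tested on simulated data. Alternatives are given in the closing section.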

Additional observations from a re-analysis of the deposited data

How the results depend on the processing

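Neat1 stayed below the median gene in all 15 alternatives, none of which reached 2-fold. The settings without centring and scaled to the summed score times length shift all genes alike. They cannot move a gene across the median gene, so they are no check of its side. Its centred log2 ratio was -0.75 with summed scores, -0.79 with score times length, -0.25 with the length-weighted mean and -0.57 with the transcript nearest the start site. By overlap with the annotated gene it was -0.54 (highest score) and -0.77 (score times length). It was -0.91 without centring, -0.99 scaled to the library's summed score times length, -0.58 with scores of at least 0.3, -0.91 with transcripts of at least 200 bp and -0.46 without simple repeats. Alternatives chosen after seeing the data gave -0.59 (centred on genes of mean value at least 5), -0.66 (shared stretch) and -0.84 (last 4 windows).

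Malat1 stayed within 2-fold in all 15, but was above the median gene in 5, at it in 1 and below it in 9. The 5 include the settings without centring and scaled to the summed score times length, whose side was fixed by the main value. In the same order its ratio was 0.18, -0.55, -0.38 and 0 (the nearest transcript scored 0.4 in both libraries), then 0.012 and -0.53, then -0.35, -0.44, -0.028, -0.35 and -0.028. Without centring the median gene itself was at -0.38, and scaled to the summed score times length it was at -0.46. Centred on genes at or above the median value it was 0.022. Those chosen after seeing the data gave -0.034, -0.53 (first 3491 bp) and -0.54 (last 3492 bp).

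The count of genes at least 2-fold higher, 716, became 1208 with summed scores, 1529 with score times length, 1354 by overlap with score times length, 224 scaled to the summed score times length and 334 with scores of at least 0.3. The count at least 2-fold lower, 765, became 1215, 1500, 1370, 2186 and 361 under the same settings, 465 with the length-weighted mean, 2460 with the nearest transcript, 2161 without centring and 1467 with at least 200 bp. The cause of these shifts was not tested.

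The score and length filters left all 16 transcript counts and covered lengths of the members within 1.5 times. The share of control transcripts matched after IL-4 was 89.7% for Neat1 (82.8% with at least 50% overlap) and 63.6% for Malat1 under both rules. These shares include calls outside the genes. Of the control transcripts inside the genes, 21 of 23 were matched for Neat1 and 6 of 6 for Malat1, so the unmatched Malat1 calls all lay outside it. No paired analysis was possible because each condition had 1 library, and leaving out a replicate was not possible for the same reason. The unknown depth and the 0.1 step limit all scores near 0.1 to 0.4, which include the transcripts outside the genes.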
